A study of Mus musculus with 9 samples.

Results

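Mrs2, Gpld1, Aldh5a1, Tdp2, Acot13, Gmnn and Ripor2 lie close together on mouse chromosome 13, with other genes between some of them. Their hypothalamic RNA was followed in Clic1 knockout (KO) and wild type (WT) mice to see how far the difference at Mrs2 reached along the chromosome. The genes were chosen by name for their position between Ripor2 and Mrs2, and the stretch was chosen because Mrs2 was known to be lower in the KO libraries. Of these 7 genes, 6 had values among the 14351 genes of the deposited table, and Gmnn, which encodes the replication inhibitor geminin, was not analysed here. Because the comparison of KO with WT picked the locus, the values of the 6 genes are given as a description with no p-value. Genes outside this list were tested.

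RNA sequencing was performed on the hypothalamus of male mice. KO mice lacked Clic1, a chloride intracellular channel protein, in the whole body, and WT mice were their littermates; both were fed normal chow, and no age was given for this experiment. The labels name the strain C57b/6J and describe frozen perigonadal adipose tissue, whereas the study's methods give CD-1 as the background of the KO mice and hypothalamus as the source of RNA. The 9 libraries are 5 KO (replicates 2, 4, 6, 8 and 10) and 4 WT (replicates 1, 3, 9 and 11), and values per library are given in this order throughout. How many mice went into a library is not given in the sources used here, so p-values measure only the spread between these samples, which may be technical.

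Replicate 10 carries conflicting labels, since its title and treatment call it WT and its description, like its column in the table, starts with the K of the KO libraries. It was grouped as KO by that description, and the differences of the locus genes are also given without it. Clic1 was 1.43 CPM (read counts scaled to library size) in replicate 10, within the range of 0.733 to 1.93 CPM in the KO group, and 3.58 to 5.52 CPM in the WT libraries. Replicate 10 also stood apart across all genes. The median of its Spearman correlations with the rest was 0.974, whereas the lowest for any pair without it was 0.989. Estimated depth on the genes of the table was 5.47 to 7.71 M reads in the other KO libraries, 20.8 M reads in replicate 10 and 7.28 to 10.98 M reads in WT. The 14 markers of hypothalamus, among them Pomc, Agrp, Hcrt and Pmch, all had values. Summed, they came to between 735 and 887 CPM for KO and between 669 and 716 CPM for WT, with the highest sum in replicate 10. Avp, which encodes vasopressin, is one of them, with means of 207 CPM for KO and 111 CPM for WT (log2 difference 0.90, adjusted p = 0.0027 from limma). It was the only 1 of the 14 with an unadjusted p under 0.05 in limma. The median log2 difference of the 14 was 0.02, and the lowest was -0.34 (standard error 0.48) for Agrp. The median of the 14 thus showed no common shift, and the sum without Avp was not tested. The part of the Avp difference in the results below was not tested. The summed levels of the 10 other marker lists (thalamus, striatum, choroid plexus, pars tuberalis, blood, microglia, oligodendrocytes, astrocytes, endothelium and ependymal cells) overlapped between the groups, although only 3 of 8 choroid plexus and 1 of 5 blood markers had values.

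The genes share a neighbourhood and not a pathway. Mrs2 is a magnesium channel of the inner mitochondrial membrane, related to the bacterial CorA channels, and is the main route by which magnesium enters the matrix. Gpld1 encodes a phospholipase D that cuts proteins off their glycosylphosphatidylinositol (GPI) anchors and circulates in plasma. Aldh5a1 encodes succinate semialdehyde dehydrogenase, which completes the breakdown of the transmitter GABA in mitochondria. Tdp2 removes topoisomerase from the ends of broken DNA, Acot13 is an acyl-CoA thioesterase, and Ripor2 is known for its part in the hair cells of the inner ear.

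In the order of the chromosome, Ripor2 (ENSMUSG00000036006) is a plus-strand gene of chromosome 13 (GRCm38) at 24582189 to 24733816, and Gmnn on the minus strand at 24751845 to 24761923. Acot13 (ENSMUSG00000006717) follows on the minus strand at 24817948 to 24831540. Tdp2 (ENSMUSG00000035958) starts 138 bases further on and runs the other way, on the plus strand at 24831679 to 24842153. Aldh5a1 (ENSMUSG00000035936) is on the minus strand at 24907579 to 24937661. Gpld1 (ENSMUSG00000021340), on the plus strand at 24943152 to 24992501, also runs away from Aldh5a1, with 5490 bases between them. Mrs2 (ENSMUSG00000021339) is on the minus strand at 24987483 to 25020379 and converges on Gpld1, so that the gene bodies overlap by 5019 bases at their 3′ ends. Among neighbouring tested genes within 0.5 Mb of Mrs2, this was the only pair with shared exonic bases in the annotation.

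The overlap bears on the values of both genes. The annotated Mrs2 transcript has 11 exons and 7035 bases, and that of Gpld1 has 26 exons and 5224 bases. They have 2466 exonic bases in common, from 24990036 to 24992501, which is 35.1% of the Mrs2 transcript and 47.2% of the Gpld1 transcript. On the Mrs2 side the shared bases are all in the 3′ untranslated region (UTR). On the Gpld1 side they hold the whole annotated 3′ UTR of 2382 bases and the last 84 coding bases before the stop codon. A read from these bases tells the genes apart only by its strand, and whether the counting used strand is not given in the sources used here. The last 30 bases of the Gpld1 transcript, at chr13:24992472-24992501, are shown with the same stretch as the Mrs2 transcript carries it, at its bases 2017 to 2046, because they mark where the shared bases begin when read from Mrs2. Both are written 5′ to 3′ from the GENCODE transcripts, each on its own strand.
Gpld1, plus strand: aaacctaactcccatggttctatttataac
Mrs2, minus strand: gttataaatagaaccatgggagttaggttt
Each is the reverse complement of the other.

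**Figure D1:**
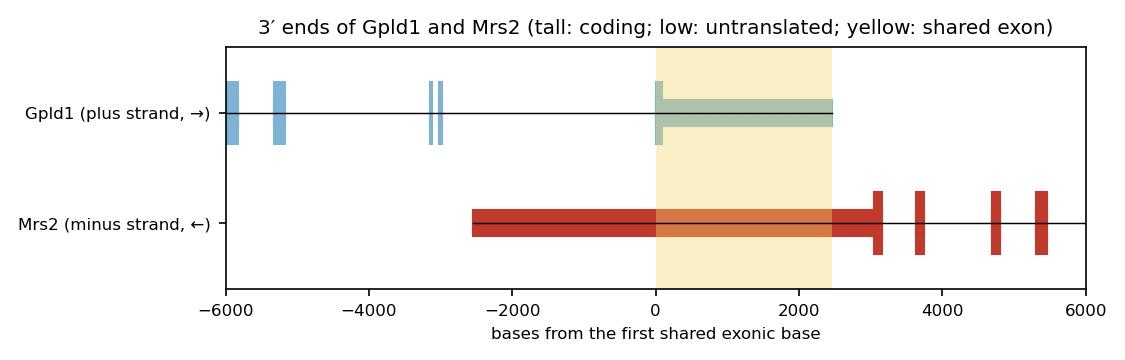
Exons at the 3′ ends of Gpld1 and Mrs2, drawn to scale in bases from the first shared exonic base, with tall boxes for coding and low boxes for untranslated sequence. The 2466 shared bases (yellow) lie in the last exon of both genes and reach across all of the 3′ UTR of Gpld1.

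Mrs2 showed the largest difference of the 6 genes. Its level was 44.2, 47.1, 53.3, 46.6 and 36.9 CPM across the KO libraries, against 83.1, 87.7, 75.4 and 84.7 CPM across WT. No KO library reached the lowest WT library, and replicate 10 was the lowest of all. Mean levels were 45.6 ± 5.93 CPM for KO (SD, n = 5) against 82.7 ± 5.26 CPM for WT (SD, n = 4), so that the KO mean was 44.8% below the WT mean. The log2 difference, on the log2(CPM + 0.1) scale used throughout, was -0.86 (standard error 0.10). It was -0.79 (standard error 0.07) without replicate 10 and -0.56 (standard error 0.22) with replicate 10 grouped as WT.

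Gpld1, which converges on Mrs2, differed less. Its level was 105.5, 93.1, 93.4, 94.6 and 114.3 CPM across the KO libraries, against 128, 116, 125 and 121 CPM across WT. The groups did not overlap, but the gap was narrow, since KO replicate 10 at 114.3 CPM sat just below WT replicate 3 at 116 CPM. The means were 100.2 ± 9.41 CPM for KO (SD, n = 5) against 123 ± 5.06 CPM for WT (SD, n = 4), with a log2 difference of -0.29 (standard error 0.08). Without replicate 10 it was -0.34 (standard error 0.06).

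Summing both genes puts each read of the shared exon in the total whichever gene it was given to. The sum was 149.8, 140.2, 146.7, 141.2 and 151.1 CPM across the KO libraries, against 211, 204, 200.2 and 206 CPM across WT. The groups did not overlap, and the highest KO library was at 151.1 CPM and the lowest WT library at 200.2 CPM. The coefficient of variation of the sum was 3.38% in KO and 2.22% in WT mice, against 12.99% and 6.35% for Mrs2 and 9.39% and 4.13% for Gpld1. Replicate 10, which had the lowest Mrs2 and the highest Gpld1 of the KO libraries, also had the highest sum of them, at 151.1 CPM against 149.8 CPM in KO replicate 2. The log2 difference of the sum was -0.49 (standard error 0.05), and -0.51 (standard error 0.04) without replicate 10.

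Mrs2 made up a smaller part of that sum in KO mice. Its share was 29.5%, 33.6%, 36.3%, 33.0% and 24.4% across the KO libraries, against 39.3%, 43.0%, 37.7% and 41.2% across WT. The lowest WT share, 37.7%, was close to the highest KO share, 36.3%. How the authors' estimates divided the reads of the shared exon was not tested.

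**Figure D2:**
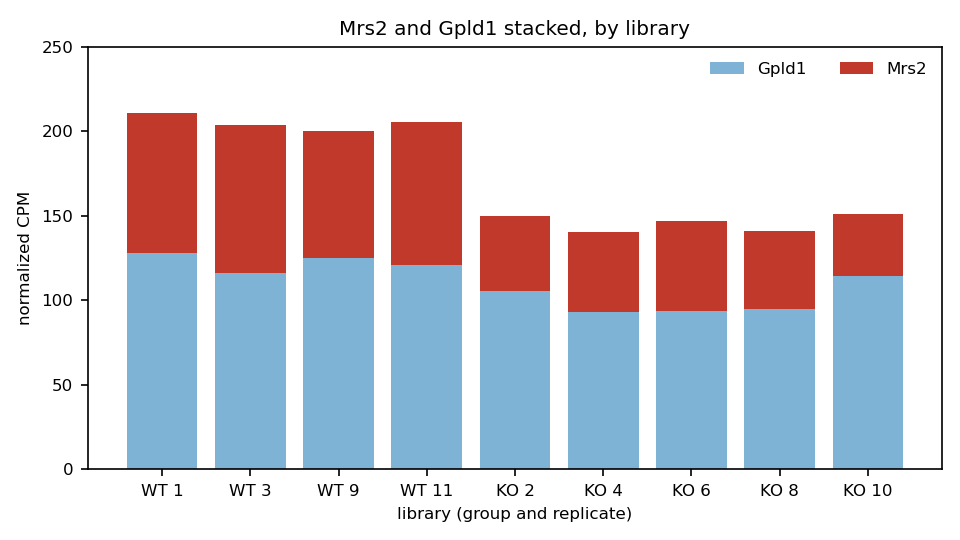
Stacked bars of Gpld1 (blue) and Mrs2 (red) in normalized CPM for each of the 9 libraries. The stacks reach 140.2 to 151.1 CPM in the 5 KO libraries and 200.2 to 211 CPM in the 4 WT libraries.

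Tdp2 and Acot13, the divergent pair, were lower in KO mice by similar amounts. Tdp2 was 7.47, 6.06, 8.06, 7.97 and 7.72 CPM across the KO libraries, against 10.9, 9.33, 11.5 and 10.2 CPM across WT. No KO library reached the WT range. The means were 7.46 ± 0.813 CPM for KO (SD, n = 5) against 10.5 ± 0.943 CPM for WT (SD, n = 4), and the log2 difference was -0.49 (standard error 0.13). Tdp2 had the fewest reads of the 6 genes, an estimated 44 to 156 per library, so its values carry the most counting error.

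Acot13 was 13.3, 10.1, 10.1, 12.04 and 15.3 CPM across the KO libraries, against 14.2, 16.1, 19.3 and 15.7 CPM across WT. The groups overlapped through replicate 10 alone, and the other 4 KO libraries were below all WT libraries. The means were 12.2 ± 2.22 CPM for KO (SD, n = 5) against 16.3 ± 2.15 CPM for WT (SD, n = 4), with a log2 difference of -0.43 (standard error 0.15) and, without replicate 10, of -0.52 (standard error 0.13). The ratio of Tdp2 to Acot13 was 0.503 to 0.800 in KO and 0.581 to 0.771 in WT libraries, so the WT range lay inside that of KO.

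Ripor2, at the far end of the stretch and 254 kb from Mrs2, differed least among the genes whose KO values lay mostly below WT. It was 37.9, 40.3, 44.0, 41.0 and 45.9 CPM across the KO libraries, against 47.7, 53.7, 48.3 and 41.7 CPM across WT. WT replicate 11 lay inside the KO range. The means were 41.8 ± 3.17 CPM for KO (SD, n = 5) against 47.8 ± 4.88 CPM for WT (SD, n = 4), with a log2 difference of -0.19 (standard error 0.09).

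Aldh5a1 lies between Gpld1 and Tdp2 and broke the pattern. It was 119, 132, 133, 132 and 121 CPM across the KO libraries, against 125, 135, 126 and 141 CPM across WT. The groups overlapped, with 3 of the 5 KO libraries inside the WT range. The means were 127 ± 6.78 CPM for KO (SD, n = 5) against 132 ± 7.82 CPM for WT (SD, n = 4), and the log2 difference of -0.05 was smaller than its standard error of 0.07.

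**Figure D3:**
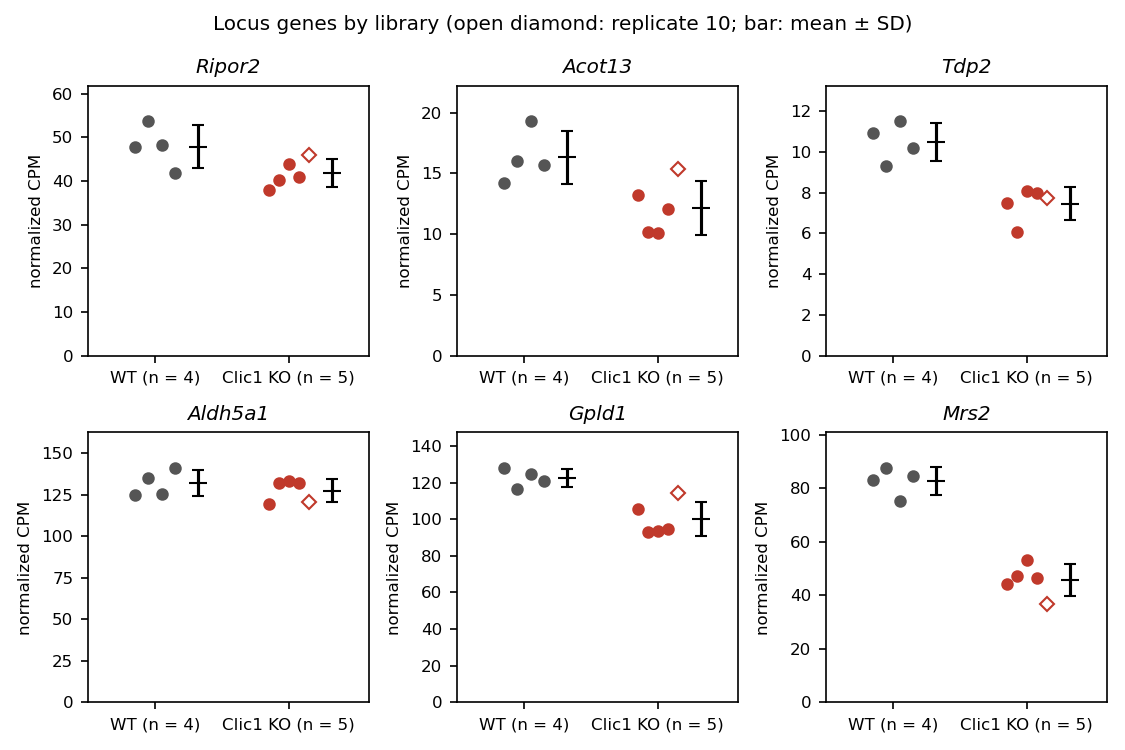
Normalized CPM of the 6 genes in each library, in chromosome order, with WT (grey, n = 4) and Clic1 KO (red, n = 5) and the mean ± SD beside each group; the open diamond is replicate 10. Mrs2, Gpld1 and Tdp2 show no overlap, whereas 3 of the 5 KO libraries lie inside the WT range for Aldh5a1.

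All 6 genes had a negative log2 difference, with a median of -0.36 against 0.00 over all genes tested. The KO libraries were below all WT libraries for 3 of the 6 genes, Mrs2, Gpld1 and Tdp2, and 1.74% of all genes showed this. In the fit across all genes (limma with an intensity trend and Benjamini-Hochberg adjustment), 1 of the 6, Mrs2, had an adjusted p under 0.05, against 0.286% of all genes tested. Without replicate 10 Gpld1 passed as well, against 0.606% of all genes. These counts rest on the contrast that chose the locus and are given only as a description. In whole tissue, fewer cells of a type and less RNA per cell cannot be told apart.

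As each library was left out, Mrs2 kept the largest difference of the 6 genes and Aldh5a1 the smallest. That of Mrs2 ran from -0.92 to -0.79, that of Gpld1 from -0.34 to -0.27 and that of Tdp2 from -0.54 to -0.42. Acot13 ran from -0.52 to -0.35, Ripor2 from -0.26 to -0.13 and Aldh5a1 from -0.07 to -0.01. Without replicate 10 the difference was -0.50 for Tdp2, -0.23 for Ripor2 and -0.03 for Aldh5a1.

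**Figure D4:**
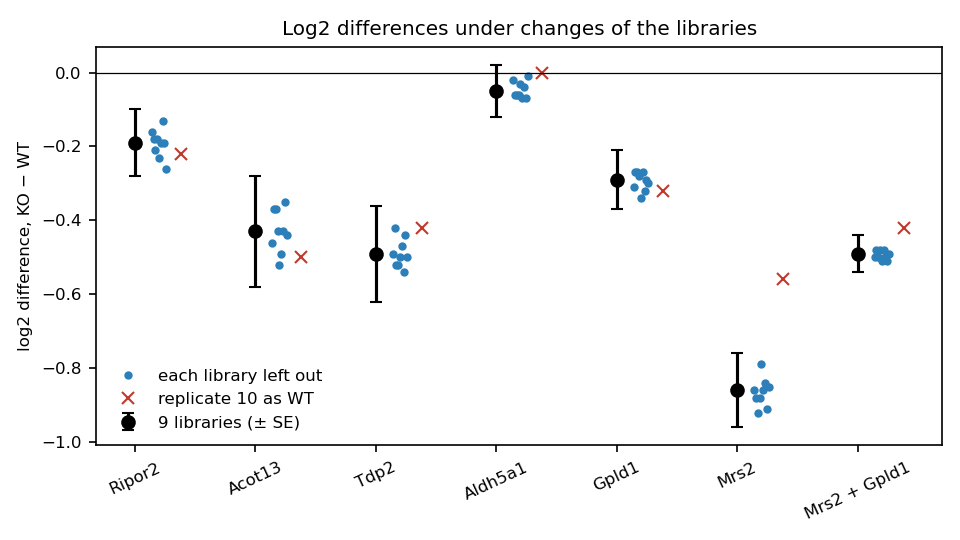
Log2 difference (KO minus WT) of the 6 genes and of Mrs2 summed with Gpld1, from all 9 libraries (black, ± standard error), with each library left out (blue) and with replicate 10 grouped as WT (red cross). The cross moves most for Mrs2, from -0.86 to -0.56.

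To compare levels between genes, CPM was divided by the annotated exonic length of each gene. In WT libraries Aldh5a1 was at 23.3, Gpld1 at 22.6 and Acot13 at 21.9 CPM per kb, and the ranges over libraries of these 3 overlapped. Mrs2 followed at 10.9 CPM per kb, with a range of 9.89 to 11.5 that met no other gene. Ripor2, at 4.10, and Tdp2, at 3.19 CPM per kb, came last, and their ranges of 3.58 to 4.60 and 2.84 to 3.50 did not meet. In KO libraries the order was the same, with Mrs2 at 5.99 CPM per kb. The levels of Mrs2 and Gpld1 depend on how the reads of their shared exon were divided, which was not tested.

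Promoter sequence from RefSeq (GRCm38.p6) was available for 3 of the 6 genes, Gpld1, Aldh5a1 and Ripor2. The 250 bases before the start of Gpld1 and of Aldh5a1 are shown since these genes stand back to back and only the values of Gpld1 separated the groups. Both are given 5′ to 3′ on the strand of the gene, at chr13:24942902-24943151 and chr13:24937662-24937911, and CpG dinucleotides are in capitals.
Gpld1, plus strand: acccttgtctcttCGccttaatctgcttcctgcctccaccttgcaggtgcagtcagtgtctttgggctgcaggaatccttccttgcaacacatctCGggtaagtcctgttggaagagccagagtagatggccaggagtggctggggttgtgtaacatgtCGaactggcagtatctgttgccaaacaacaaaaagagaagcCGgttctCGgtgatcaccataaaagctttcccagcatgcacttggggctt
Aldh5a1, minus strand: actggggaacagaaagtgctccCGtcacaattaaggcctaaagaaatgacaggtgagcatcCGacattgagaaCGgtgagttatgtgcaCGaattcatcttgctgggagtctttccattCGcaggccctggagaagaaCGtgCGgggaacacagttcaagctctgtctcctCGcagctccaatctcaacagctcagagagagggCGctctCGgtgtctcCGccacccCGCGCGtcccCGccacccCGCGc
Gpld1 had 5 CpG in this window and Aldh5a1 had 17, against a median of 6 over 32851 promoters of the same length. Of the motifs searched on both strands, the GC box (GGGCGG), the TATA box (TATAAA) and the E box (CACGTG) were in neither window. The CCAAT box (CCAAT) was in that of Aldh5a1, and 33.8% of all promoters hold it. The GC box is in 32.7%, the TATA box in 12.4% and the E box in 6.02% of them. No methylation or binding was measured here.

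Between Ripor2 and Mrs2, 2 further genes had values and were tested. D130043K22Rik, between Tdp2 and Aldh5a1 at 24845135 to 24901270, was 56.5 ± 7.71 CPM for KO (SD, n = 5) against 53.4 ± 2.83 CPM for WT (SD, n = 4). Its log2 difference was 0.07 (standard error 0.10, adjusted p = 0.909 from limma), and -0.01 without replicate 10, which held its highest value of 70.0 CPM. BC005537, beside Acot13 at 24801657 to 24816197, was 174 ± 11.7 CPM for KO (SD, n = 5) against 182 ± 13.9 CPM for WT (SD, n = 4). Its log2 difference was -0.06 (standard error 0.07, adjusted p = 0.888 from limma), and 0.02 with replicate 10 grouped as WT. Like that of Aldh5a1, both differences were within their standard errors. Of these 3 genes, D130043K22Rik and Aldh5a1 lie between Tdp2 and Gpld1, whose KO and WT libraries did not overlap.

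On the right of Mrs2 only 2 tested genes lie within 1.5 Mb. Dcdc2a, which encodes a doublecortin domain protein, starts 35.6 kb beyond Mrs2 at 25056004 to 25210706. It ran from 8.61 to 14.9 CPM over the KO libraries and from 13.4 to 16.4 CPM over WT, with an overlap through KO replicate 8. Its log2 difference was -0.34 (standard error 0.15, adjusted p = 0.759 from limma). Nrsn1, which encodes the neuronal membrane protein neurensin and lies 232 kb from Mrs2, was 147, 165, 164, 166 and 134 CPM across the KO libraries, against 228, 250.2, 242 and 233 CPM across WT. Its log2 difference was -0.62 (standard error 0.07, adjusted p = 0.00342 from limma), already known from an earlier look at these libraries. Without replicate 10 the difference was -0.57 (adjusted p = 2.44e-05 from limma), and moving replicate 10 to the WT group gave -0.40 (adjusted p = 0.684 from limma). Like Mrs2, Nrsn1 was lowest in replicate 10. The next tested gene on this side, Gm11361, is 3.24 Mb from Mrs2 and outside the window. Its means were 0.164 CPM for KO and 11.3 CPM for WT, a log2 difference of -6.07 (standard error 0.58). Its KO mean was under the 1 CPM that the authors' filter asks for, so this is given only as a description.

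On the left, the nearest tested genes beyond Ripor2 were Carmil1, a regulator of actin capping 707 kb from Mrs2, and Scgn, which encodes the calcium-binding protein secretagogin. Carmil1 was 71.0 ± 1.76 CPM for KO (SD, n = 5) against 72.1 ± 1.93 CPM for WT (SD, n = 4), with a log2 difference of -0.02 (standard error 0.06, adjusted p = 0.953 from limma). Scgn was 1.99 ± 0.532 CPM for KO (SD, n = 5) against 2.14 ± 0.404 CPM for WT (SD, n = 4), with a log2 difference of -0.11 (standard error 0.25, adjusted p = 0.949 from limma). Between Ripor2 and Carmil1 no other gene had values.

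Over the whole window of 1.5 Mb on both sides, 29 tested genes were outside the list. The threshold was passed by 2 of them, Nrsn1 and H3c7, both lower in KO mice, against 0.286% of all genes tested. Nrsn1 was known from an earlier look and H3c7 has the limits given below, so this count is only a description. Of the 29 genes 22 encode histones of the cluster 1.22 to 1.46 Mb to the left, and 1 of these 22, H3c7, passed. H3c7 was 0.303, 0, 0.810, 0.877 and 0.185 CPM across the KO libraries, against 7.31, 3.90, 14.2 and 5.71 CPM across WT. No KO library reached the 1 CPM that the authors' filter asks for in at least 5 samples, whereas all 4 WT libraries did. The gene could thus pass the filter only through libraries where it is high. The 4 WT libraries are fewer than 5, so how it passed is not clear from the libraries used here. The deposited values also hold 1 per-library column with no matching sample label, which was left out. Whether H3c7 reached 1 CPM in that column was not tested. Its comparison of KO with WT is therefore given only as a description. The log2 difference was -4.14 (standard error 0.63, adjusted p = 0.0168 from limma), and the adjusted p ranged from 0.00385 to 0.0855 as each library was left out, rising above 0.05 without WT replicate 1, 9 or 11. The longest H3c7 transcript matches those of 6 other H3 genes at 96.8% to 98.8% identity, so its reads can be divided among them. Summed with those 6 genes, a comparison chosen after the values were seen, it was 46.2 ± 16.0 CPM for KO (SD, n = 5) against 60.3 ± 30.8 CPM for WT (SD, n = 4), a log2 difference of -0.31 (standard error 0.29, adjusted p = 0.873 from limma). WT replicate 9 had the highest WT value for 20 of the 22 histone genes. The median log2 difference was -0.38 over the histone genes and -0.06 over the other 7 genes outside the list.

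**Figure D5:**
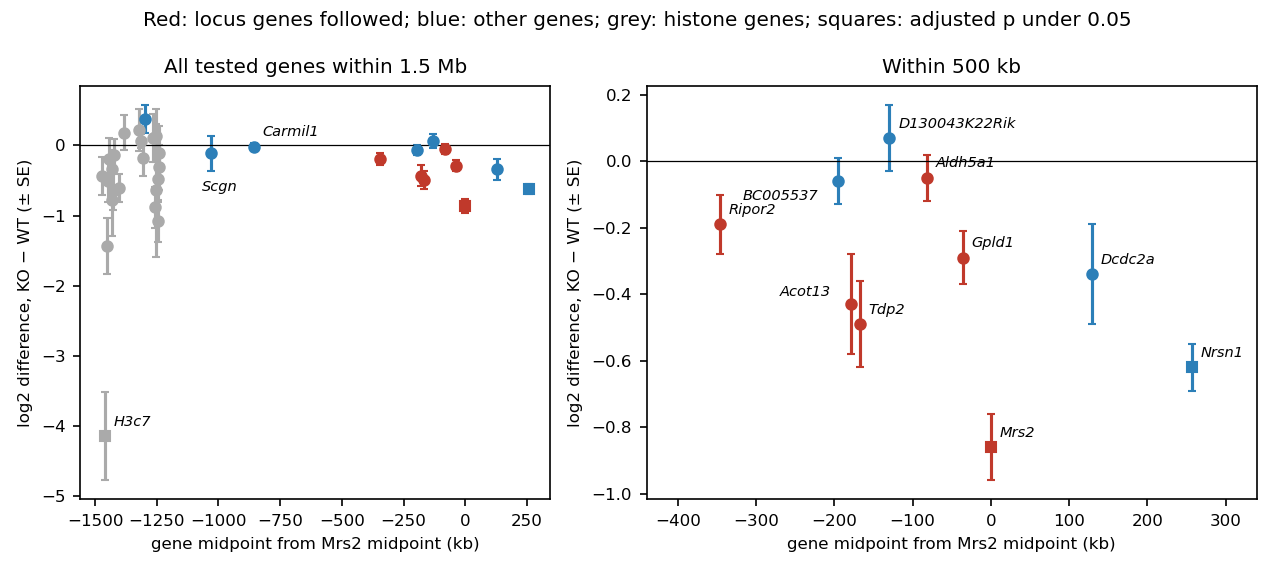
Log2 difference (KO minus WT, ± standard error) of the tested genes within 1.5 Mb of Mrs2 against the distance of each gene's midpoint from that of Mrs2 in kb, with the part nearest to Mrs2 enlarged on the right. Mrs2 (-0.86) and Nrsn1 (-0.62) are lowest in the enlarged part, and Aldh5a1 (-0.05), BC005537 (-0.06) and D130043K22Rik (0.07) lie near 0 between Ripor2 (-0.19) and Mrs2.

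The profile of Mrs2 over the 9 libraries was compared with that of 12071 genes that averaged 5 CPM or more, as the root mean square distance of log2 deviations from the WT mean. The 5 nearest were Nmnat2 on chromosome 1 (0.160), Ccl28 on chromosome 13 (0.168), Nrsn1 (0.202), Tmem267 on chromosome 13 (0.208) and Stk19 on chromosome 17 (0.211), against a median of 0.674. The measure uses the difference between the groups, so it favours genes with one of like size. Among the locus genes Tdp2 was nearest, at 0.351 and rank 27, followed by Acot13 at 0.462, Gpld1 at 0.481, Ripor2 at 0.536 and Aldh5a1 at 0.617.

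Other genes were listed for pathways of Mrs2, Gpld1, Aldh5a1, Tdp2, Acot13 and Gmnn. Over 7 lists with 105 tested genes, limma called 0 at an adjusted p of 0.05, against 0.286% of all genes tested. With so low a share over all genes, 0 of 105 says little about these lists. An unadjusted p under 0.05 in limma was found for 7 of the 105, against 6.5% of all genes tested. The list medians were between -0.09 and 0.07 on the log2 scale. For Mrs2, 18 magnesium transport genes ran from -0.34 (standard error 0.17) for Nipal4 to 0.91 (standard error 0.32) for Trpm6, a magnesium-permeable channel with means of 1.58 CPM for KO and 0.762 CPM for WT. The 15 genes of mitochondrial ion transport ran from -0.25 for Mcub, a subunit of the calcium uniporter, to 0.34 for Ccdc51. For Gpld1, 23 genes of GPI anchor assembly ran from -0.46 (standard error 0.14) for Pigh to 0.20 for Pigo, both of which act in building the anchor.

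For Aldh5a1, 10 genes of GABA and succinate semialdehyde metabolism ran from -0.12 for Gad2, which makes GABA, to 0.17 for Akr7a5. For Tdp2, 14 genes of topoisomerase adduct repair ran from -0.03 for Mre11a to 0.28 for Xrcc5, a DNA end-binding protein. The 12 other thioesterase genes beside Acot13 ran from -0.24 for Acot10 to 0.29 for Acot3. The 13 genes of replication origin licensing, where Gmnn acts, ran from -0.49 for Mcm5 to 0.28 for Orc6.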

How the data were processed

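The values analysed were a signal that the authors deposited, normalized CPM per gene and library. Per the labels and methods, reads were trimmed with Trimmomatic 0.38, aligned to GRCm38.p6 with STAR 2.5.1a and quantified per gene with RSEM 1.3.0. Genes without at least 1 CPM in at least 5 samples were removed, and libraries were scaled by TMM in edgeR. RSEM divides ambiguous reads between genes, which bears on Mrs2 and Gpld1. The authors' own comparison (fold changes, p-values) was not used, and 1 per-library column with no matching sample label was left out.

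Here limma 3.58.1 in R 4.3.3 compared KO with WT on log2(CPM + 0.1), with no covariate, an intensity trend and Benjamini-Hochberg adjustment over 14351 genes (threshold 0.05). The study used limma-voom on counts. The fit was tested on simulated data. Depth was estimated from the steps between the lowest CPM values, of which 81.0% to 86.5% were whole reads within 0.03 reads, so read numbers are approximate. Gene models came from the mouse GENCODE release M21, whereas the study counted reads with Ensembl release 98, and transcript matches came from blastn 2.17.0.

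Members and lists were chosen with earlier results of these data known. Named genes were the 6 genes of the list with values, and tested genes within 1.5 Mb of Mrs2 that passed or were the 4 nearest on each side. The next tested gene on the right, the extremes of each list and the 5 nearest profiles were also named. A list of genes for Ripor2 is not reported here. Alternatives changed the pseudocount, filter, scaling, variance model, libraries, window and threshold.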

Additional observations from a re-analysis of the deposited data

Results flagged for a closer look

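A library lay far from the others of its group in 3 of 32 groups of values checked, where chance gives about 1 in 20. Dcdc2a was 16.4 CPM in WT replicate 3, against 13.4 to 13.6 CPM in the other WT libraries. D130043K22Rik was 70.0 CPM in KO replicate 10, where the rest of the KO group ran from 51.9 to 55.3 CPM. Scgn was 1.54 CPM in WT replicate 1, against 2.30 to 2.38 CPM in the other WT libraries. None of the 6 locus genes, nor the sum or ratio of Mrs2 and Gpld1, had such a library.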

How the results depend on the processing

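Across all genes 41 passed the threshold, against 135 with sample weights, 27 where genes under a mean of 5 CPM were left out, 5 with replicate 10 as WT, and 18 (without WT replicate 1) to 87 (without KO replicate 10) as each library was left out. Of the genes outside the list within 1.5 Mb, 2 passed, against 0.286% of all genes tested. The count became 1 with a pseudocount of 0.01 CPM, a mean of at least 5 CPM, no intensity trend or a window of 0.5 Mb. A window of 5 Mb gave 3 of 56 genes, with Gm11361 added, against 0.286% of all genes tested. For the window of 1.5 Mb the count became 0 with replicate 10 as WT. In that fit 7 of 29 had an unadjusted p under 0.05 in limma, against 6.65% of all genes. Apart from Nrsn1, these 7 were histone genes of the cluster 1.22 to 1.46 Mb from Mrs2, so their number does not describe the genes nearest to Mrs2. With replicate 10 as KO, 8 of 29 had an unadjusted p under 0.05 in limma, against 6.5% of all genes. These were Nrsn1, Dcdc2a (unadjusted p = 0.0402 from limma) and histone genes of the same cluster. The count that passed was 1 to 2 as each library was left out, and 1 without WT replicate 1, 9 or 11. Of the 6 locus genes 1 passed, against 2 with sample weights and 0 with replicate 10 as WT. The number was 1 to 2 as each library was left out, with 2 without KO replicate 10. Grouping replicate 10 as WT put 5 of the 6 at an unadjusted p under 0.05 in limma, against 6.65% of all genes. This is given only as a description. With replicate 10 as WT the log2 difference was -0.56 for Mrs2 and -0.42 for the sum of Mrs2 and Gpld1, 0.02 for BC005537 and -0.09 for D130043K22Rik, the last 2 with a changed sign. D130043K22Rik ran from -0.01 (without KO replicate 10) to 0.10 as each library was left out. In place of the sum, the genes kept separate gave -0.86 for Mrs2 and -0.29 for Gpld1. The cause of these shifts was not tested. No paired analysis was possible because the groups share no replicate numbers. Values of a few CPM or less, such as those of Scgn and of H3c7 in KO, rest on few reads.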
